A study of Mus musculus with 8 samples.

Results

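Txnip, 4 related arrestin-domain genes, 2 thioredoxin genes and 3 genes of the glucose-responsive Mlx factors were followed in retinas of mice lacking *Rbfox2*. The members are the rows whose gene symbol is *Txnip*, *Arrdc1*, *Arrdc2*, *Arrdc3*, *Arrdc4*, *Txn1*, *Txnrd1*, *Mlx*, *Mlxip* or *Mlxipl*, listed by name. All 10 are among the 17500 genes of the deposited table, and all 10 passed the filter on low counts that left 16797 genes for testing. Poly(A)-selected RNA of whole retinas was sequenced with 1 library per mouse, from 4 *Rbfox2*-/- animals (M893, M901, M902, M909) and from 4 controls (M833, M894, M896, M898). All mice were 6 months old on a C57BL/6J background. The *Rbfox2*-/- mice carried *Rbfox2* fl/fl and a tamoxifen-inducible Cre and had been given tamoxifen by oral gavage, whereas the controls were heterozygous *Rbfox2* fl/+ mice, so that both groups carried a floxed allele. The sample labels call the first group *Rbfox2* KD and list 4 months of tamoxifen for both groups. In the paper, dosing lasted a few consecutive days at about 2 months of age. There, 4 months is the time from downregulation to RNA-seq in *Rbfox2*-/- mice, not the length of treatment. Whether the controls carried Cre or received tamoxifen or vehicle is not given in the sources used here.

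Thioredoxin is a small protein that reduces oxidized cysteines of other proteins, and thioredoxin reductase returns it to its reduced form with electrons from NADPH. Txnip, the thioredoxin-interacting protein, binds reduced thioredoxin and also belongs to the alpha-arrestins, adaptors that link membrane proteins such as glucose transporters and receptors to ubiquitin ligases of the NEDD4 family. When glucose phosphates accumulate, the factors MondoA (*Mlxip*) or ChREBP (*Mlxipl*), each paired with Mlx, bind carbohydrate response elements and raise *Txnip* and *Arrdc4*, so that both genes are commonly read as reporters of glucose supply. Photoreceptors are known for a high use of glucose, and *Txnip* is studied in the retina in diabetes and in the survival of cones.

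The promoters of *Txnip* and *Arrdc4* are shown because both genes are known to respond to glucose, and that of *Arrdc2* because *Arrdc2* is the member whose groups separated in these data. RefSeq (GRCm38.p6, the assembly that mm10 names) gave promoter windows for 10 of 10 members, and the 250 bases before the transcription start are printed 5′ to 3′ on the strand of the gene. Capitals mark the hexamers CACGTG and CACGAG and the pentamer CCAAT, each searched on both strands.
*Txnip*, chr3:96557707-96557956, plus strand: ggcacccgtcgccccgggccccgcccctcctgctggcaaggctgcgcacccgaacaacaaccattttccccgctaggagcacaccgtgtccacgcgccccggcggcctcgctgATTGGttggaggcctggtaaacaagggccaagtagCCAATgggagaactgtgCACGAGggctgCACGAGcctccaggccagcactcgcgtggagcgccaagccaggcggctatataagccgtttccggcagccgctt
*Arrdc4*, chr7:68749239-68749488, minus strand: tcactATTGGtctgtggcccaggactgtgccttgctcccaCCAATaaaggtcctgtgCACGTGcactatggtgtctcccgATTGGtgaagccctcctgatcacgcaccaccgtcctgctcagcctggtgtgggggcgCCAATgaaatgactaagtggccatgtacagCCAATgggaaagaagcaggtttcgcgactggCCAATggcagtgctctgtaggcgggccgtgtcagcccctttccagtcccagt
*Arrdc2*, chr8:70839721-70839970, minus strand: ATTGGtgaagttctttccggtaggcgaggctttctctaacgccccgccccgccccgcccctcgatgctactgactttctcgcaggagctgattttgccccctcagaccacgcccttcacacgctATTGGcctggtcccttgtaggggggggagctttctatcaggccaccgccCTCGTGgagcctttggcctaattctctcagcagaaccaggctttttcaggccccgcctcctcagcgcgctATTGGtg

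In the *Txnip* window, CACGAG stood 85 and 74 bases before the start with 5 bases between the copies, which is the layout of a carbohydrate response element. A pair of CACGNG hexamers with 5 bases between them, a pattern that takes in both of these copies, occurred in 15 of 32851 promoter windows (0.0457%) and in no other window of the members. The *Arrdc4* window held CACGTG 193 bases before the start, a hexamer found in 6.02% of all windows, and 6 copies of CCAAT, whereas 2.79% of all windows held at least 3. Besides *Arrdc4*, the windows of *Mlx* and *Mlxipl* held CACGTG. The *Arrdc2* window held 3 copies of CCAAT and 1 of CACGAG, and the *Txnip* window held 2 of CCAAT (at least 2 in 10.1% of windows). CACGAG was also in the *Arrdc1* window, with 2 copies, and in 1 window of *Mlxipl*, with 1 copy. At least 1 copy of CACGAG occurred in 5.37% of all windows and at least 2 in 0.262%. These matches are letters in a window and were not tested for binding.

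Gene counts totalled 160630226 to 211283591 in the 8 libraries. A floor of 3 counts equals 0.0144 to 0.0189 CPM (counts relative to library size after normalization) and covers counting error only. *Rbfox2*, the targeted gene, lay between 53.6 and 59.4 CPM in *Rbfox2*-/- retinas and between 144 and 157 CPM in controls, 37.7% of the control mean. M901 and M902 had 1439.7 and 1739 CPM of *Xist*, the RNA of the inactive X chromosome. The other 6 mice had between 1.71 and 2.22 CPM, so that these 2 *Rbfox2*-/- libraries stand apart from all others. No control had a level near theirs, so this feature was not balanced between the groups. Markers of each retinal neuron class and of Müller glia were present in every library. Control M833 had the lowest summed level of 3 retinal ganglion cell markers, 92.5 CPM against 120.8 to 153.4 CPM in the other 7 mice. Over 4 melanocyte markers the sum was 14.7 CPM in M833 and between 27.2 and 301.5 CPM in the other controls, and it was between 7.77 and 61.2 CPM in *Rbfox2*-/- mice. In whole retinas, fewer cells of a type and less RNA per cell cannot be told apart. Values below are for all 8 mice unless they are said to be without M833 or without M901 and M902.

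Levels of the members relative to one another were read from the deposited FPKM, the fragment counts scaled to library size and gene length. In controls, *Arrdc3*, an alpha-arrestin that regulates adrenergic receptors, was the most abundant with 27.3 ± 3.65 FPKM (SD, n = 4), followed by *Txn1*, cytosolic thioredoxin, with 24.8 ± 1.70 FPKM, and their ranges overlapped. *Txnrd1*, the cytosolic thioredoxin reductase, had 15.5 ± 0.921 FPKM and *Mlx* 11.4 ± 0.425 FPKM, and neither range met that of the gene above. *Arrdc2* had 9.07 ± 1.83 FPKM, overlapping with *Mlx* through control M898. *Txnip* with 4.90 ± 1.63 FPKM and *Arrdc1* with 4.78 ± 0.609 FPKM overlapped with each other. *Mlxip* followed with 3.08 ± 0.200 FPKM, *Arrdc4* with 1.65 ± 0.0872 FPKM and *Mlxipl* with 0.268 ± 0.0210 FPKM, without overlap between these 3. *Mlxip* was therefore between 11.3 and 11.7 times as abundant per length as *Mlxipl* in the 4 controls, and the ratio was 21.8 in M902, the mouse with the least *Mlxipl*. *Txnip* lay above 45.4% of the genes of the table in controls. In *Rbfox2*-/- retinas *Txnip*, with 2.54 ± 0.422 FPKM (SD, n = 4), fell behind *Arrdc1* and *Mlxip*, which had means of 4.47 and 2.97 FPKM. The range of *Txnip*, 1.93 to 2.90 FPKM, overlapped with that of *Mlxip*, 2.81 to 3.18 FPKM. In control M833 *Txnip* was also below *Mlxip*. By the means, the other genes kept their place except that *Txn1* stood before *Arrdc3*. In M893 and M909 *Arrdc3* remained above *Txn1*.

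**Figure D1:**
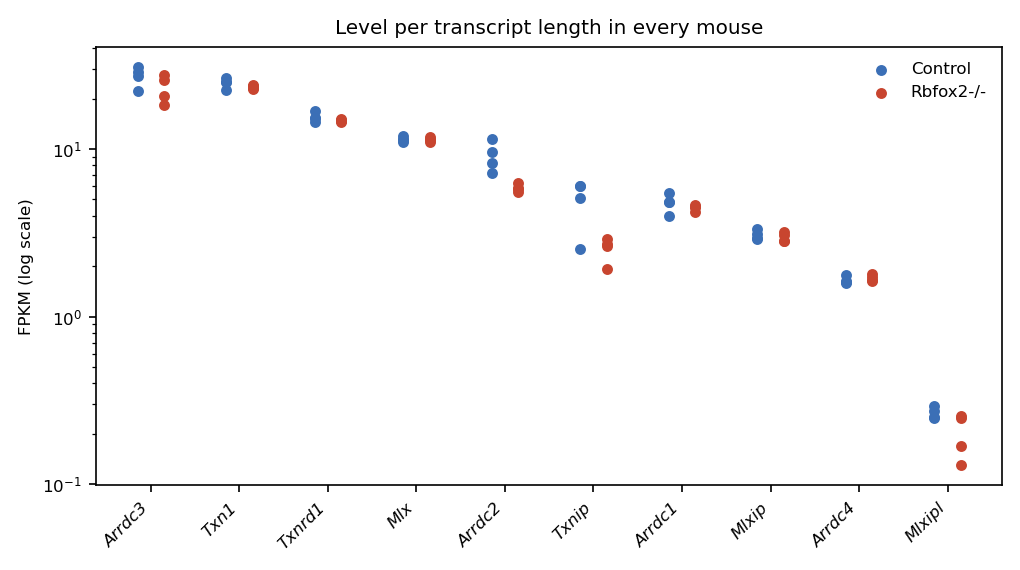
FPKM (log scale) of the 10 genes in every mouse, ordered by the control mean, with 1 point per mouse, control in blue and *Rbfox2*-/- in red. *Arrdc3* and *Txn1* lead and *Mlxipl* is lowest, and *Txnip* has 3 control points above all *Rbfox2*-/- points and 1 control point, M833, among them.

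*Txnip* was lower in *Rbfox2*-/- than in most control retinas. Its level in *Rbfox2*-/- mice was lowest in M902 with 5.47 CPM, followed by M901 (7.45), M893 (7.50) and M909 (8.17). In controls it had 16.6 CPM in M894, 14.0 in M896 and 16.5 in M898, but 7.22 in M833. All *Rbfox2*-/- mice lay below 3 of 4 controls, and M833 lay within their range. The mean was 7.15 ± 1.16 CPM in *Rbfox2*-/- mice and 13.6 ± 4.41 CPM in controls (SD, n = 4 each), which is 52.6% of the control level. The quasi-likelihood fit of edgeR put the log2 fold change at -0.93 (standard error, SE, 0.24, 95% interval -1.45 to -0.40), with an unadjusted p of 0.00283, which ranked 248th of 16797 genes, and an adjusted p of 0.190 after Benjamini-Hochberg adjustment. An exact permutation test of log2(CPM + 1), two-sided, gave p = 0.114, where 4 mice against 4 cannot go below 0.0286. Among the 10 genes, *Txnip* varied most between mice, with 3.04-fold between the highest and the lowest mouse. The paper, which ranked genes by adjusted and by unadjusted p, names *Txnip* among the differentially regulated genes of this RNA-seq. It also reports a lower level of *Txnip* in *Rbfox2*-/- retinas by real-time PCR, and does not state which mice were measured.

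The call for *Txnip* depended on control M833 and on the test used. Its log2 fold change was -1.14 (SE 0.13) without M833, with an adjusted p of 0.0152 by edgeR's quasi-likelihood test. Without M901 and M902 it was -0.80, with an adjusted p of 0.782 by the same test. With 1 surrogate variable, an estimated covariate that took its highest values in M901 and M902, the log2 fold change was -0.60 (SE 0.27, adjusted p = 0.780). DESeq2 gave -0.93 with an adjusted p of 0.0498. The direction was the same in all 17 alternatives, and the log2 fold change ranged from -1.14 to -0.60. M833, the control with low *Txnip*, was also the control with the lowest sums of the 4 melanocyte and 3 ganglion cell markers given above and of 3 ciliary epithelium markers, 12.4 CPM against 15.6 to 28.0 in the other controls and 3.34 to 13.8 in *Rbfox2*-/- mice. The same held for 4 endothelium markers, with 27.5 CPM against 29.8 to 38.2 in the other controls and 21.9 to 30.8 in *Rbfox2*-/- mice. Its sums of rod, bipolar, amacrine, horizontal cell and surface epithelium markers were the highest of the controls. None of these markers was at 0 in any mouse, and their part in the difference was not tested.

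The *Txnip* gene spans 96557957 to 96561883 on chromosome 3 (GRCm38, plus strand), and 19.4% of its exon bases are also exonic in *Gm15441*, a noncoding gene on the opposite strand. *Gm15441* had 21 to 40 counts in controls and 16 to 31 in *Rbfox2*-/- mice, together 1.38% of the counts of *Txnip* (log2 fold change -0.40, SE 0.29, adjusted p = 0.590). Whether the counting used strand is not given in the sources used here, and reads of the shared bases cannot then be assigned to one gene.

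*Arrdc2*, an alpha-arrestin of little known function, was the member whose groups did not overlap. The *Rbfox2*-/- mice had 13.2 CPM (M901), 13.5 (M893), 13.9 (M902) and 14.8 (M909). The controls had 17.0 CPM (M833), 19.0 (M894), 22.2 (M896) and 26.3 (M898). The lowest control was above the highest *Rbfox2*-/- mouse, and the spread was wider in controls. The means were 13.8 ± 0.706 and 21.1 ± 4.04 CPM (SD, n = 4 each), 65.5% of the control level. The log2 fold change was -0.61 (SE 0.12, 95% interval -0.87 to -0.35, p = 0.000395 and adjusted p = 0.104 by edgeR), and the exact permutation test, two-sided, gave p = 0.0286, the smallest that 4 mice against 4 allow. By p, *Arrdc2* ranked 64th of the genes tested, before *Txnip*. Its difference was nearly as large without M901 and M902 (-0.58, adjusted p = 0.584 by edgeR) and larger without M833 (-0.70, adjusted p = 0.0342). It was smallest without M898, the highest control (-0.49, adjusted p = 0.232 by edgeR). DESeq2 gave an adjusted p of 4.53e-05. Sums of 3 marker lists separated the groups as *Arrdc2* did. The 4 Müller glia markers summed to between 4067 and 4390 CPM in controls and between 3787 and 3995 CPM in *Rbfox2*-/- mice through *Glul* (-0.17 on the log2 scale), while *Rlbp1* was at 0.05, *Aqp4* at 0.04 and *Slc1a3* at -0.04. The 3 horizontal cell markers summed to between 89.0 and 92.7 CPM in controls and between 71.6 and 75.0 CPM in *Rbfox2*-/- mice. This came mainly through *Calb1* (-0.40), while *Onecut1* was at -0.13 and *Lhx1* was higher (0.18). The 4 cone markers were higher in sum, with 707 to 791 CPM against 661 to 694 CPM. They did not move together, with *Opn1sw* at 0.26, *Opn1mw* at -0.23, *Pde6h* at 0.07 and *Gnat2* at 0.05. None of these markers was at 0 in any mouse, and their part in the difference of *Arrdc2* was not tested. *Arrdc2* lies on chromosome 8 from 70835129 to 70839720, on the minus strand, and shares no bases with another annotated gene.

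**Figure D2:**
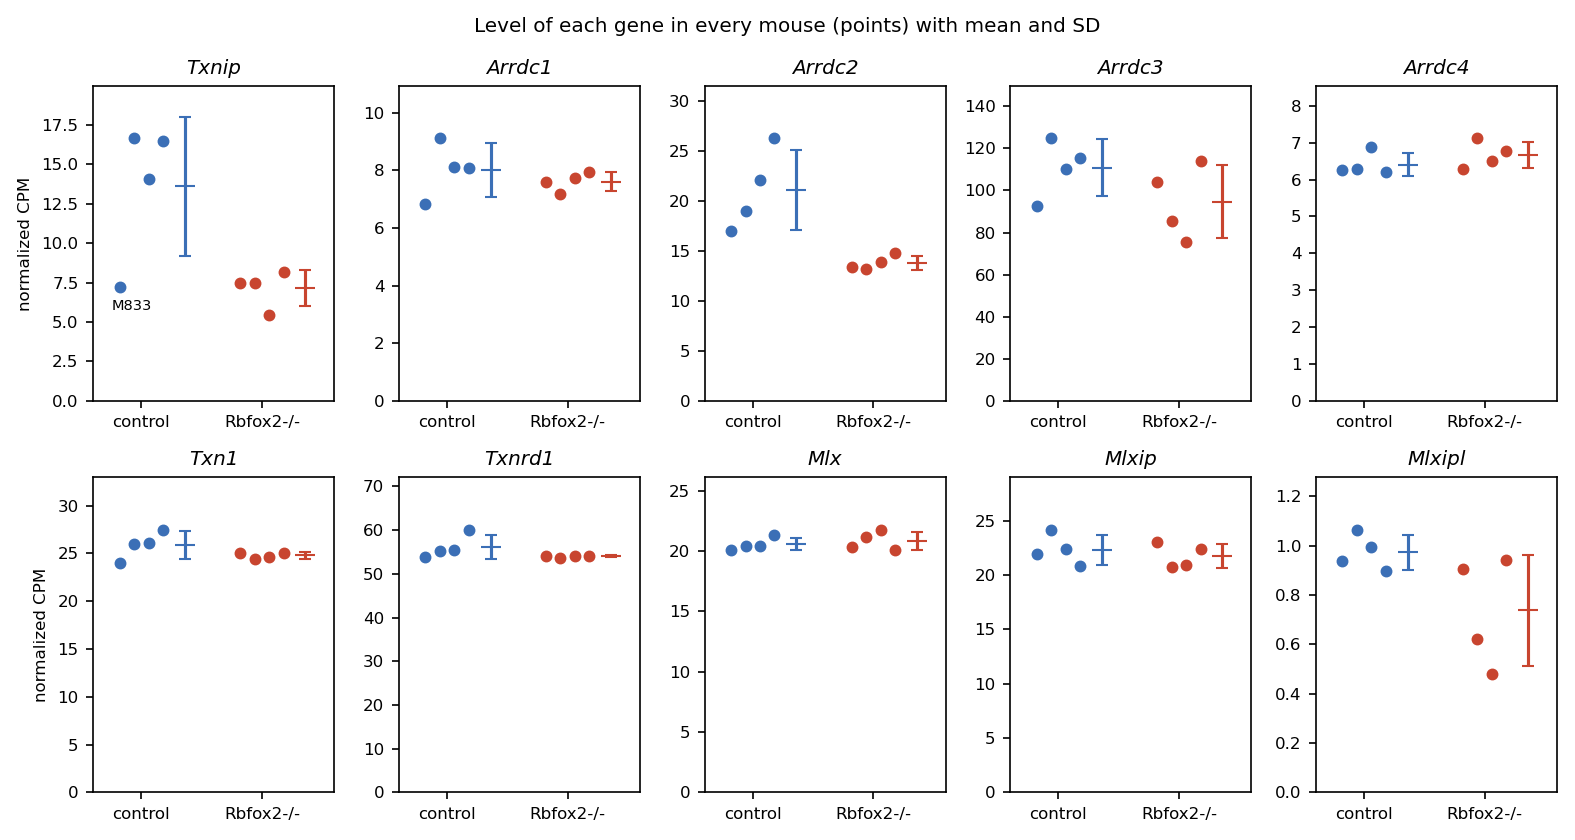
Normalized CPM of the 10 genes in each mouse, 1 panel per gene with axes from 0, showing 4 control (blue) and 4 *Rbfox2*-/- (red) mice as points with the mean and SD beside them. *Arrdc2* separates the groups, *Txnip* does so except for control M833, and *Arrdc3* and *Mlxipl* have 2 low *Rbfox2*-/- points each.

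The other 3 alpha-arrestins overlapped between the groups. *Arrdc3* had 75.4 CPM (M902), 85.4 (M901), 104 (M893) and 114 (M909) in *Rbfox2*-/- mice, against 92.4 (M833), 124.7 (M894), 110.4 (M896) and 115 (M898) in controls. The low values were those of M901 and M902, whereas those of M893 and M909 fell between the lowest and the highest control. The difference was -0.23 on the log2 scale (SE 0.13, 95% interval -0.51 to 0.06, adjusted p = 0.478), which became -0.31 without M833 and -0.03 without M901 and M902. *Arrdc4*, the arrestin gene closest to *Txnip* in its known response to glucose, had between 6.28 and 7.11 CPM in *Rbfox2*-/- mice and between 6.19 and 6.87 CPM in controls. The difference was 0.06 on the log2 scale (SE 0.067, 95% interval -0.09 to 0.21, adjusted p = 0.746), so that the interval leaves out a fall as large as that of *Txnip*. *Arrdc1*, an alpha-arrestin involved in the budding of vesicles from the cell surface, had 7.17 to 7.95 CPM in *Rbfox2*-/- mice, all within the control range of 6.82 to 9.11 CPM (log2 fold change -0.08, SE 0.086, adjusted p = 0.738, and -0.15 without M833). *Txnip* and *Arrdc4* did not move together, since in M902, which had the least *Txnip*, *Arrdc4* was at 6.505 CPM, above 3 of 4 controls.

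The 2 thioredoxin genes varied little. *Txn1* had 24.4 to 25.1 CPM in *Rbfox2*-/- mice and 24.0 to 27.5 CPM in controls, a difference of -0.06 on the log2 scale (SE 0.047, 95% interval -0.17 to 0.04, adjusted p = 0.592) and of -0.10 without M833. *Txnrd1* had 53.6 to 54.2 CPM in *Rbfox2*-/- mice, a coefficient of variation of 0.483%, and 53.7 to 60.0 CPM in controls (log2 fold change -0.06, SE 0.040, 95% interval -0.14 to 0.03, adjusted p = 0.578). With *Txn1* nearly level, the ratio of *Txnip* to *Txn1* followed *Txnip*. Per length it was 0.0833 (M902), 0.112 (M893), 0.115 (M901) and 0.122 (M909), against 0.113 (M833), 0.202 (M896), 0.225 (M898) and 0.240 (M894). Thioredoxin RNA thus exceeded *Txnip* RNA in every mouse, by 4.17-fold to 8.84-fold in controls and by 8.16-fold to 8.89-fold in M893, M901 and M909, with a still larger excess in M902.

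The groups overlapped for each of the 3 Mlx factor genes, and none had an adjusted p under 0.05 by edgeR's quasi-likelihood test. *Mlx*, the shared partner, had 20.1 to 21.7 CPM in *Rbfox2*-/- mice and 20.1 to 21.3 CPM in controls, a difference of 0.02 on the log2 scale (SE 0.044, 95% interval -0.08 to 0.11, adjusted p = 0.909). *Mlxip*, encoding MondoA, had 20.8 to 23.0 CPM in *Rbfox2*-/- mice and 20.8 to 24.2 CPM in controls, a difference of -0.04 (SE 0.057, 95% interval -0.16 to 0.09). The signs of *Mlx* and *Mlxip* changed with the libraries included, as without M901 and M902 they were -0.03 and 0.02. *Mlxipl*, encoding ChREBP, was the rarest member. The *Rbfox2*-/- mice had 0.479 CPM (M902), 0.623 (M901), 0.904 (M893) and 0.943 (M909), against 0.937 (M833), 1.06 (M894), 0.993 (M896) and 0.898 (M898) in controls. These are 76 to 181 counts in *Rbfox2*-/- and 159 to 195 counts in control libraries. Again M901 and M902 were below every control, and the other *Rbfox2*-/- mice lay within the control range. On the log2 scale the difference was -0.40 (SE 0.21, 95% interval -0.88 to 0.08, adjusted p = 0.450) and -0.08 without M901 and M902. Of the exon bases of *Mlx*, 19.3% are shared with *Psmc3ip* on the opposite strand, which had 679 to 978 counts per mouse.

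Over the 10 members, 0 had an adjusted p under 0.05 by edgeR's quasi-likelihood test (0.0655% of all genes tested), and 2, *Txnip* and *Arrdc2*, had an unadjusted p under 0.05, both lower in *Rbfox2*-/- retinas (6.87% of all genes tested were lower at this p and 6.42% were higher). By DESeq2 the same 2 genes had an adjusted p under 0.05 (2.77% of all genes). The groups did not overlap for 1 of 10 members, *Arrdc2*, and for 7.03% of all genes (3.39% with *Rbfox2*-/- lower), so that the share of members is near that of all genes. Of the 10 log2 fold changes, 8 were below 0, against 49.3% of all genes, and their median was -0.07 against 0.00162 over all genes tested. Without M901 and M902, *Txnip* and *Arrdc2* again had p under 0.05 (6.01% of all genes, 2.46% being lower). Without M833 there were 4, *Txnip*, *Arrdc2*, *Arrdc3* and *Txn1*, all lower (17.6% of all genes, 9.46% being lower).

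**Figure D3:**
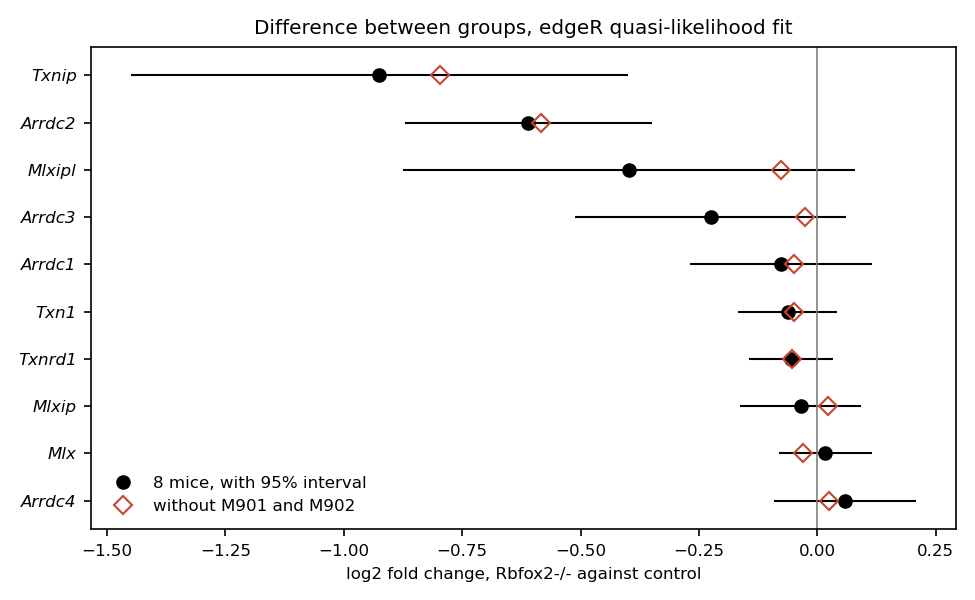
Log2 fold change of *Rbfox2*-/- against control retinas for the 10 genes from edgeR's quasi-likelihood fit, with filled points and 95% intervals for 8 mice and open diamonds for the fit without M901 and M902. The intervals of *Txnip* and *Arrdc2* lie below 0, and the values of *Mlxipl* and *Arrdc3* move close to 0 without M901 and M902.

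**Figure D4:**
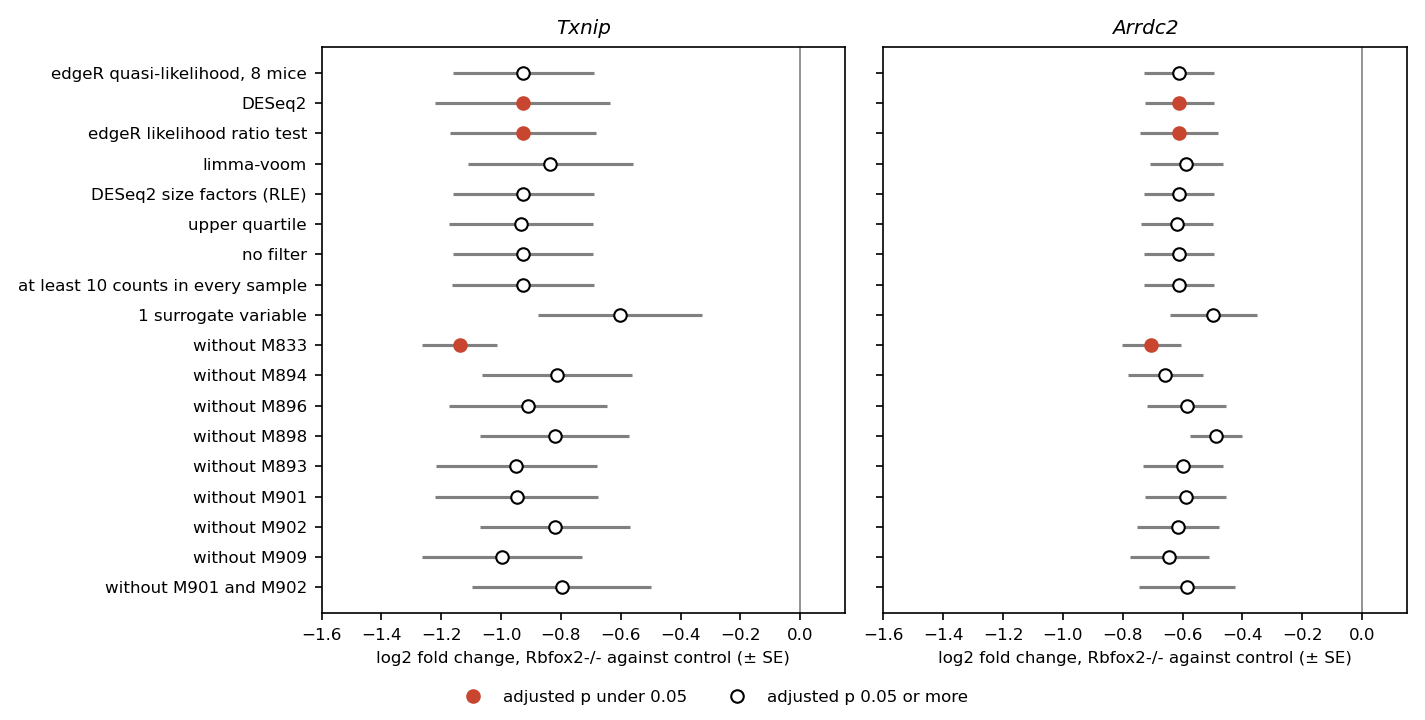
Log2 fold change (± standard error) of *Txnip* and *Arrdc2* under each analysis setting, with red points where the adjusted p was under 0.05. Every value lies below 0 for both genes, and the adjusted p passed with DESeq2, with edgeR's likelihood ratio test and without M833.

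Other genes of these pathways were described by lists, with the quasi-likelihood test of edgeR at an unadjusted p under 0.05, which 13.3% of all genes met. Among 15 of 16 lipid and sugar genes known to respond to the Mlx factors, 3 were lower, 2 were higher and 10 did not pass, with a median log2 fold change of 0.01. *Acacb*, the acetyl-CoA carboxylase at mitochondria, was lower with 4.35 ± 0.439 CPM against 7.05 ± 1.03 CPM (SD, n = 4 each; log2 fold change -0.69, adjusted p = 0.0837). *Rgs16*, a regulator of G protein signalling, was also lower (-0.22, adjusted p = 0.286). The stearoyl-CoA desaturases *Scd1* and *Scd2* were higher, with 27.8 ± 1.84 against 22.2 ± 1.68 CPM and 646 ± 25.3 against 562 ± 12.9 CPM (log2 fold changes 0.32 and 0.20, both with an adjusted p of 0.116). The groups did not overlap for *Acacb*, *Scd1* and *Scd2*, and these 3 genes and *Rgs16* had p under 0.05 also without M901 and M902. The fatty acid synthase gene *Fasn* was at -0.06 and the transcription factor gene *Klf10* at -0.23 (-0.06 without M901 and M902), and neither passed.

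Of 17 other genes of the thioredoxin, peroxiredoxin and glutaredoxin systems, 4 were lower, 0 were higher and 13 did not pass, with a median log2 fold change of -0.02. *Prdx6*, a peroxiredoxin that repairs oxidized phospholipids, had 113 CPM (M902), 114 (M901), 118 (M909) and 122 (M893), against 135 to 159 CPM in controls (log2 fold change -0.29, SE 0.053, adjusted p = 0.0875). All *Rbfox2*-/- mice lay below all controls. *Prdx4*, the peroxiredoxin of the endoplasmic reticulum, was at -0.31, *Nxn*, nucleoredoxin, at -0.26 and *Glrx*, glutaredoxin, at -0.18. Without M901 and M902 only *Prdx6* of the 17 had p under 0.05. In the list of NRF2, the main activator of antioxidant genes, and its targets, 3 of 8 were lower and 0 were higher. *Slc7a11*, the cystine transporter, had 5.30 to 10.7 CPM in *Rbfox2*-/- and 11.7 to 18.4 CPM in control mice without overlap (log2 fold change -0.89, adjusted p = 0.176), and M901 and M902 were again the lowest. Without these mice it was -0.56, with p under 0.05. *Gclm*, of glutathione synthesis, and *Osgin1* were at -0.13 and -0.58 and did not pass without M901 and M902.

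Of 18 genes of glucose transport and phosphorylation, 2 were lower, 1 was higher and 15 did not pass. *Gckr*, the regulator of glucokinase, was the 1 gene of all lists with an adjusted p under 0.05 (log2 fold change 0.34, adjusted p = 0.0277), with 46.2 ± 1.13 CPM against 36.5 ± 1.70 CPM (SD, n = 4 each). The transporters *Slc2a4* (-0.53) and *Slc2a10* (-1.16) were lower, both under 1.2 CPM in every mouse, and neither passed without M901 and M902, when *Hkdc1*, a hexokinase domain gene, did (0.56, against 0.41 in all mice). *Slc2a1*, the main glucose transporter of the retina and a cargo of Txnip, was at -0.10 (-0.0075 without M901 and M902), and the hexokinases *Hk1* and *Hk2* were at 0.04 and -0.26, and none of the 3 passed. AMP-activated protein kinase is the energy sensor that marks Txnip for degradation. Of 8 genes, those of its subunits and of a kinase upstream of it, 1 was lower, the subunit gene *Prkag3* (-0.62, adjusted p = 0.192), and 7 did not pass. Its groups met at 2.41 CPM in M902 and 2.39 CPM in M894.

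Among 9 ubiquitin ligases of the NEDD4 family, the partners of alpha-arrestins, 0 had p under 0.05 and the log2 fold changes lay between -0.05 and 0.09, the highest being those of *Nedd4l* (0.09) and *Nedd4* (0.07). Of 4 other arrestins, *Sag*, the arrestin of rods, was higher (0.22, adjusted p = 0.264), and 3 did not pass. In the Max and Mlx network, 1 of 12 genes, *Max*, was higher (0.11, adjusted p = 0.367), and *Max* did not pass without M901 and M902, when *Mnt* did. Without M833, *Max* and *Mxd1* passed as higher and *Myc* as lower in this network, and *Nedd4l* passed as higher among the ligases. Of 6 tested genes of inflammasome and stress signalling that are partners of Txnip, 0 passed. *Nlrp3* was at 0.34 with under 0.3 CPM in every mouse, and *Map3k5* at -0.11.

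**Figure D5:**
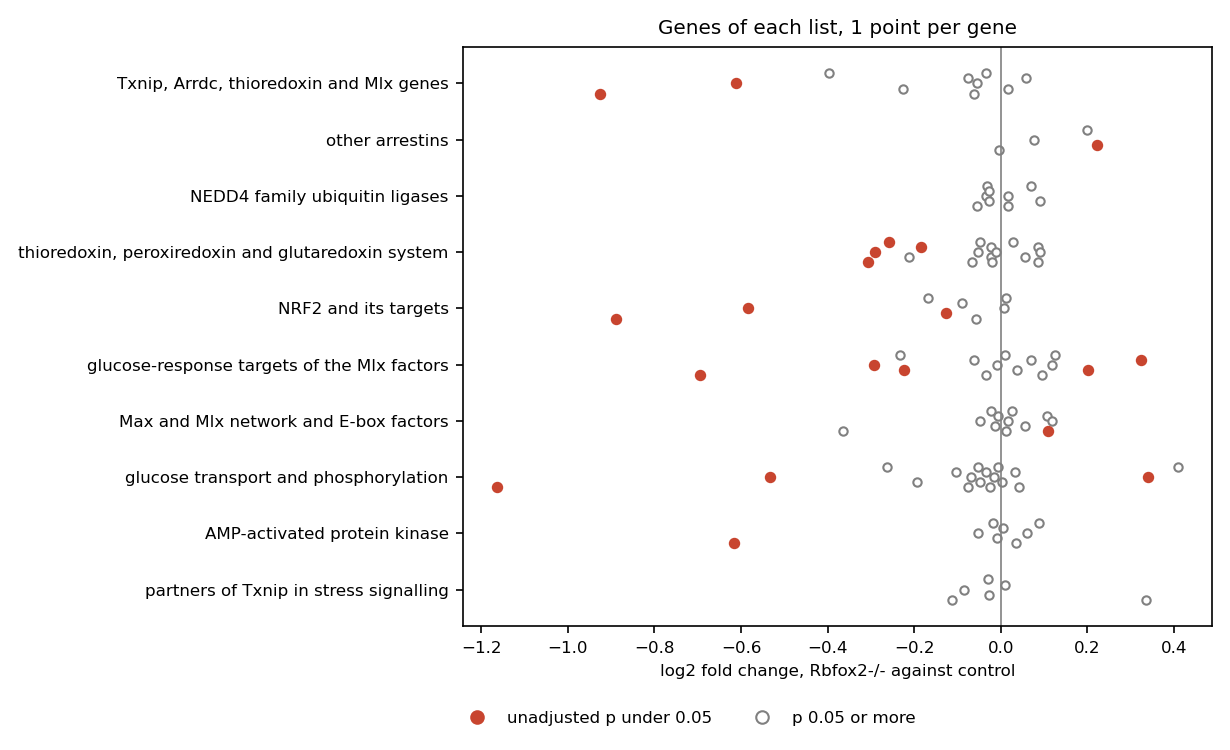
Log2 fold change of *Rbfox2*-/- against control retinas for every tested gene of each list, 1 point per gene, in red where the unadjusted p of edgeR's quasi-likelihood test was under 0.05. Most points lie within 0.2 of 0, and the lists of redox genes have red points on the lower side only.

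The genes whose pattern over the 8 mice was most like that of *Txnip* were sought among 13755 others with a mean of at least 1 CPM, by the root mean square difference of scaled log2(CPM + 1). They were *Sox13*, a transcription factor (0.230), *Tgfbr2*, a receptor of TGF-beta (0.231), *Slc3a2*, the heavy chain that pairs with the cystine transporter (0.251), *Rbms1*, an RNA-binding protein (0.256), and *Zyx*, a protein of focal adhesions (0.262). In each of the 5, M833 was the lowest control, which follows from the choice, as M833 was the lowest control for *Txnip*. *Slc3a2*, for example, had 123 CPM in M833 and 135 to 144 CPM in the other controls, against 116 to 125 CPM in *Rbfox2*-/- mice. Among the 8 other members compared (*Mlxipl* was below 1 CPM), *Txn1* (0.473, rank 219) and *Arrdc2* (0.496, rank 272) were the most like *Txnip*, and *Arrdc4* (1.47, rank 8027) was the least like it. The genes most like *Arrdc4* were *Gabrg3*, *Vwa9* and *Prune*, with differences of 0.321 to 0.381. These likenesses describe 8 mice and carry no test.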

How the data were processed

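Per the paper's methods, the authors sequenced poly(A)-selected libraries on a NovaSeq, aligned reads to mm10 (GRCm38) with STAR, kept uniquely mapped reads and deposited raw fragment counts per gene from HTSeq; both RefSeq and Ensembl annotations are named. The authors also deposited FPKM, and how these were computed is not given in the sources used here. The submitters' processing notes name CASAVA 1.8.2 and edgeR. The 8 columns of adjusted counts and the authors' own fold changes and p-values were not used.

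Low genes were removed by filterByExpr, libraries were scaled by TMM, and edgeR 4.0.16 (R 4.3.3) gave quasi-likelihood tests of *Rbfox2*-/- against control, without covariates, on all genes, with Benjamini-Hochberg adjustment and a threshold of 0.05. Standard errors were derived from the log2 fold change and its F statistic. Alternatives used DESeq2 1.42.0, limma 3.58.1 (voom), sva 3.50.0, other normalizations, other filters and subsets of mice. The fit was tested on simulated data of 16718 genes, where 96.5% of 200 genes with 2-fold changes were recovered and 8 others were called. The changed genes were drawn from those with higher counts, and no simulated mouse stood apart from its group. The share recovered therefore does not hold for smaller changes or for genes with an outlying mouse. All pairs of libraries differed by more than sampling noise (chi-square per degree of freedom at least 31.5). The labels give mouse numbers but no culture or litter, so p-values measure the spread between these mice. Genes were placed on GENCODE M21 by symbol.

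The members and gene lists were chosen with earlier results of these data known. Named are all members, *Rbfox2*, *Xist*, in each list up to 4 genes with the lowest p under 0.05 (otherwise the 2 largest changes), and the genes nearest in pattern to *Txnip* (5) and *Arrdc4* (3). *Fasn*, *Klf10*, *Slc2a1*, *Hk1*, *Hk2*, *Gm15441*, *Psmc3ip*, *Mnt*, *Myc*, *Mxd1* and *Hkdc1* were named after their values were seen. *Tkfc* was matched by its older symbol, *Dak*. *Arrdc5* and *Pklr* were not analysed here.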

Additional observations from a re-analysis of the deposited data

Results flagged for a closer look

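Of 20 groups of 4 mice (10 genes in 2 groups), 1 held an isolated mouse by Dixon's ratio of gap to range, where chance alone gives about 1.0. It was *Arrdc4* in control M896, with 6.875 CPM against 6.19 to 6.28 CPM in the other controls (gap of 0.877 of the range).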

How the results depend on the processing

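The 10 members were refitted under 17 alternatives each, 170 fits in all. In 157 of them the direction and the side of the threshold were as reported, in 6 the gene passed an adjusted p of 0.05, and in 7 the sign changed. *Txnip* passed with DESeq2 (-0.93) and the likelihood ratio test (-0.93), and *Arrdc2* with DESeq2 (-0.61) and the likelihood ratio test (-0.61). With each mouse left out in turn, *Txnip* ranged from -1.14 to -0.81, passing without M833 only, and *Arrdc2* from -0.70 to -0.49, likewise. With 1 surrogate variable the sign changed for *Arrdc3* (0.041), *Mlx* (-0.015) and *Mlxip* (0.023), and without M901 and M902 for *Mlx* (-0.030) and *Mlxip* (0.023). With single mice left out, *Mlx* ranged from -0.0063 to 0.034 and *Mlxip* from -0.067 to 0.0046. Over the whole table, 11 genes passed as reported, 465 with DESeq2, 164 with the likelihood ratio test, 1 without M901 and M902, 5 with the surrogate variable, and 5 to 35 with 1 mouse left out (35 without M833). Members at an unadjusted p under 0.05 numbered 2, and 4 without M833, an alternative chosen after seeing the data. The causes were not tested. No paired analysis was possible because the labels give no replicate number shared between the groups. *Mlxipl* had the fewest counts of the members, 76 to 195 per library.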
